A study of Mus musculus with 8 samples.

Results

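The genes described here are 40 genes of DNA replication and mitosis, a set of cell cycle genes from which Cdc6 and Top2a were left out as neighbours of Erbb2. Each gene was represented by the probe that carried exactly 1 gene symbol and had the highest mean over the tumours, a rule that uses no difference between tumours. In this way 38 of the 40 genes were found among 22180 genes that have such a probe, namely 16 of 17 S phase genes and 22 of 23 mitosis genes. Ccne2, whose 1 probe carries several symbols, and Ccnb1, which no named probe represents, were not analysed here. All 38 lay above the level at which genes were left out as dim, a mean log2 signal of 4.06.

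RNA came from 8 primary mammary tumours of transgenic mice of the FVB inbred strain, 1 whole-transcript array per tumour. Every tumour carried NeuNT, an activated form of the receptor tyrosine kinase ErbB2, and in 4 of them no other modification was named. In the other 4, given as NeuNT/H1074R, p110α was mutated as well; p110α is a catalytic subunit of the lipid kinase PI3K, and the series title writes the mutation as H1047R. The promoters that drive the transgenes, the age of the mice and whether each tumour came from a mouse of its own are not given in the labels. The p-values therefore take the 8 tumours as independent, which the labels do not settle. With 1 array per tumour, differences between tumours and technical differences between arrays cannot be told apart. The comparison asks how tumours with wild-type and with mutant p110α differ in expression, and here it is put to the genes of the dividing cell.

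Cells that commit to division pass from G1 into S phase, copy their DNA, and separate the copies in mitosis. In the textbook account E2F transcription factors switch on the genes of G1 and S phase, among them cyclin E, the MCM helicase that unwinds DNA, the sliding clamp PCNA and the enzymes that make deoxynucleotides. Genes of G2 and mitosis are held down in resting cells by the DREAM complex and switched on later by MYBL2 and FOXM1, often through a promoter element called CHR (cell cycle genes homology region) that lies beside CCAAT boxes. In a tumour both groups of genes are read as a measure of proliferation, with Mki67 as the marker used in pathology.

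Promoter sequences were compared first. No motif was used to choose the genes, but the textbook account already ties these groups to E2F and to CHR. A difference between the groups was therefore foreseen. RefSeq windows of 300 bases (GRCm38.p6, 250 before to 50 after the start) were found for 14 of the 17 S phase genes and 18 of the 23 mitosis genes, and were searched on both strands. The E2F motifs were TTTCGCGC, TTTGGCGC, TTTCCCGC and TTTGCCGC, the CHR motifs TTTGAA and TTCGAA, and the third motif was CCAAT. E2F motifs of opposite strands can overlap, and a gene with several windows counted once if any of them held the motif. An E2F motif was held by 6 of the 14 S phase genes (42.9%), 1 of the 18 mitosis genes (5.56%) and 704 of all 27025 genes in the table (2.61%). For the CHR motifs the order was the opposite, with 14 of 18 mitosis genes (77.8%), 3 of 14 S phase genes (21.4%) and 21.7% of all genes. CCAAT was held by 16 of 18 mitosis genes (88.9%), 9 of 14 S phase genes (64.3%) and 41.1% of all genes, and every mitosis gene with a CHR motif also had CCAAT. Counted alone, TTTGAA was held by 13 of 18 mitosis genes (72.2%) against 20.2% of all genes, and TTTGGCGC by 5 of 14 S phase genes (35.7%) against 0.585% of all genes. These matches describe the letters in the windows and do not show binding.

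Of the mitosis genes, examples came from the 14 of 18 with a CHR motif. Of the S phase genes, they came from the 6 of 14 with an E2F motif. For Mcm7, which had 2 windows, the one with more E2F and CHR matches was used. The stretches just before the start of 3 mitosis genes and 3 replication genes are shown. They run 5′ to 3′ on the gene's strand and end at the last base before the start, with every E2F, CHR and CCAAT match on either strand in capitals (ATTGG is CCAAT read on the other strand). Cdc20 is the activator of the anaphase-promoting complex, Cdk1 the kinase of mitotic entry and Mki67 the proliferation marker.
Cdc20, chr4:118437344-118437463, strand minus: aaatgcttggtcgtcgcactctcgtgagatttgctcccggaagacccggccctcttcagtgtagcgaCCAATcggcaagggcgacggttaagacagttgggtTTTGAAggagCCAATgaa
Cdk1, chr10:69352913-69353052, strand minus: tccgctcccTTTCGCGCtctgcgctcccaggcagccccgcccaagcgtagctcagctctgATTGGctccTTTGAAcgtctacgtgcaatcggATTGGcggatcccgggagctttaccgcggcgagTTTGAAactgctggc
Mki67, chr7:135716380-135716579, strand minus: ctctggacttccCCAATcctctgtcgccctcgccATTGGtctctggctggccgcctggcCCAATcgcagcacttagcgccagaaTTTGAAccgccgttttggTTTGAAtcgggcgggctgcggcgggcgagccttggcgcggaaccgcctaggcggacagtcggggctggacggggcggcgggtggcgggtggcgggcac
Mcm5, Mcm6 and Mcm7 encode subunits of the replicative helicase.
Mcm5, chr8:75109339-75109508, strand plus: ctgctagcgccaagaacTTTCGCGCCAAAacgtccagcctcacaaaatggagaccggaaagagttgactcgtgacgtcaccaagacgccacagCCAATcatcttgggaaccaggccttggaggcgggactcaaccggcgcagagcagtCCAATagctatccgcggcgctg
Mcm6, chr1:128359706-128359905, strand minus: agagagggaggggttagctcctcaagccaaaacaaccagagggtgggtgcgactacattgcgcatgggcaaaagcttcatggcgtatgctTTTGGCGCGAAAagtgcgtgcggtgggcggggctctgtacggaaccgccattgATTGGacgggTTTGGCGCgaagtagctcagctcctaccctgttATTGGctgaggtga
Mcm7, chr5:138171884-138172083, strand minus: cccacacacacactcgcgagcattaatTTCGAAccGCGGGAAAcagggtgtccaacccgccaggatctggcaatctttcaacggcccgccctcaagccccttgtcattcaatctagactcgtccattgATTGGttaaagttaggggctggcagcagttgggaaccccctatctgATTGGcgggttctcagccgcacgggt
With the base before the start counted as −1, Cdc20 had TTTGAA from −18, between CCAAT boxes, and Mki67 had it from −116 and from −98. Among the 18 mitosis genes with a window only Cdk1 had an E2F motif, TTTCGCGC from −131, and it also had TTTGAA from −71 and from −15. In Mcm5 and in Mcm6 E2F motifs of opposite strands overlapped, starting at −153 and −110, while Mcm7 had an E2F motif from −165 next to TTCGAA from −173.

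In the tumours most of the 38 genes varied together, and their levels ranged further between tumours of the same genotype than between genotype means. Mki67, Cdk1, Ccna2, Ccnb2, the kinases of mitosis and the MCM genes were low in NeuNT replicate 2 and in NeuNT/H1074R replicate 4. They were higher in the other 6 tumours, a pattern that E2f2, Ccne1, Gins2, Cdc20 and Nusap1 did not follow, or not in full. Mitosis genes ranged further than S phase genes, with a median range over the tumours of 1.48 against 0.96 log2 units, and 0.74 for all genes tested. Of the 38 genes, 34 had a lower mean in NeuNT/H1074R, but 0 passed the test, against 0% of all 16635 genes tested (limma, Benjamini-Hochberg adjusted p under 0.05), and 0 of 38 had an unadjusted p under 0.05, against 3.82%. Differences between genotypes are given throughout as NeuNT/H1074R minus NeuNT.

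**Figure D1:**
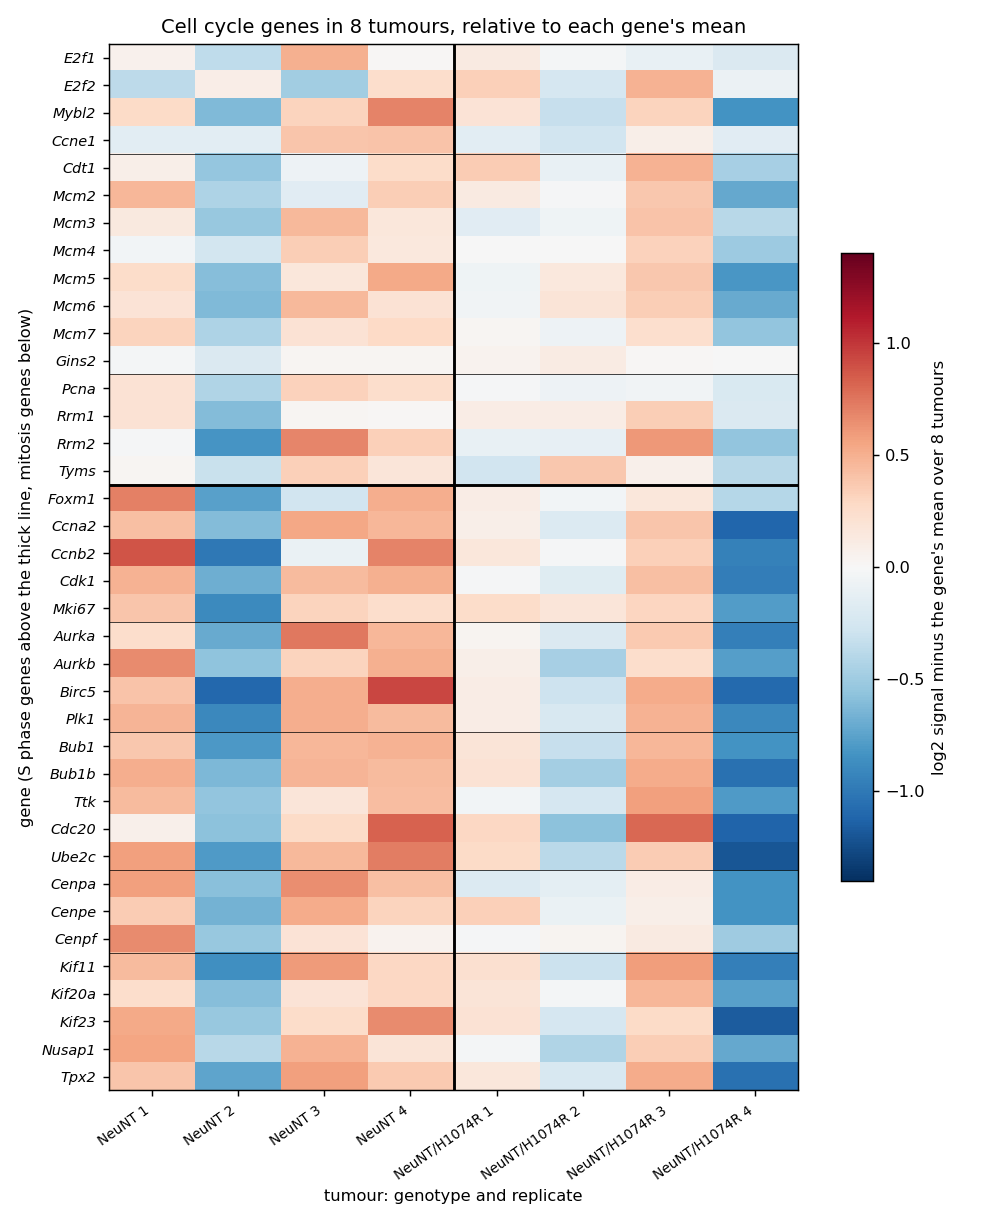
Log2 signal of each of the 38 genes (rows, grouped by role) in each of the 8 tumours (columns), minus that gene's mean over the 8 tumours; red is higher and blue lower, and the thick horizontal line parts S phase from mitosis genes. The columns of NeuNT replicate 2 and NeuNT/H1074R replicate 4 are blue for nearly all genes, and more deeply so for mitosis genes.

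Mki67, the marker of cycling cells, stood at 8.77, 7.49, 8.69 and 8.63 in NeuNT replicates 1 to 4 and at 8.64, 8.55, 8.68 and 7.60 in NeuNT/H1074R replicates 1 to 4. Its lowest value in each genotype, NeuNT replicate 2 and NeuNT/H1074R replicate 4, lay about 1 log2 unit below the other 3 tumours, and these 6 tumours lay within 8.55 to 8.77. The means were 8.39 ± 0.61 (SD, n = 4) for NeuNT and 8.37 ± 0.52 (SD, n = 4) for NeuNT/H1074R, with a difference between genotypes of −0.029 ± 0.35 (SE) on the log2 scale, which did not pass (limma, adjusted p = 0.997). The difference was positive with quantile normalization, at 0.035, and on leaving out any of 4 single tumours, so its sign is not settled.

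The same tumours were low across the set. NeuNT replicate 2 was the lowest NeuNT tumour for 37 of the 38 genes, against 25.6% of all genes tested, and NeuNT/H1074R replicate 4 was the lowest NeuNT/H1074R tumour for 36 of 38, against 24.3% of all genes. Both held at once for 36 of the 38 genes (94.7%) and for 7.05% of all genes tested, the exceptions being E2f2 and Ccne1. Both tumours lay below all of the other 6 for 33 of 38 genes (13 of 16 S phase and 20 of 22 mitosis genes) and for 4.24% of all genes. The 5 genes that did not follow were E2f2, Ccne1, Gins2, Cdc20 and Nusap1. No single tumour was highest throughout, with 13 genes highest in NeuNT replicate 3, 9 in NeuNT replicate 4, 8 in NeuNT replicate 1 and 6 in NeuNT/H1074R replicate 3. In RNA from whole tumours, fewer dividing cells and less RNA per dividing cell cannot be told apart.

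To set S phase against mitosis, a group level was taken for each tumour as the mean over the group's genes of the log2 signal minus each gene's own mean. The S phase level was 0.10, −0.43, 0.22 and 0.25 in NeuNT replicates 1 to 4 and 0.032, −0.023, 0.27 and −0.42 in NeuNT/H1074R replicates 1 to 4. The mitosis level was 0.47, −0.70, 0.38 and 0.47 in NeuNT replicates 1 to 4 and 0.12, −0.22, 0.38 and −0.90 in NeuNT/H1074R replicates 1 to 4. Both levels put the same tumours low, but over the 8 tumours the mitosis level ranged over 1.37 log2 units and the S phase level over 0.70.

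S phase level minus mitosis level was −0.37, 0.28, −0.16 and −0.21 in NeuNT replicates 1 to 4 and −0.090, 0.20, −0.11 and 0.47 in NeuNT/H1074R replicates 1 to 4. It was above 0 in NeuNT replicate 2, NeuNT/H1074R replicate 2 and NeuNT/H1074R replicate 4, the 3 tumours with a mitosis level under 0. In the other 5 it was below 0. Both levels moved together and the mitosis level, which is subtracted, ranged further. A sign opposite to that of the mitosis level therefore follows largely from how the contrast is built. In NeuNT/H1074R replicate 2 the S phase level was close to the mean of all tumours while the mitosis level was −0.22, and in NeuNT replicate 1, the tumour with the highest mitosis level, the S phase level was only 0.10. By genotype this contrast averaged −0.12 ± 0.28 (SD, n = 4) for NeuNT and 0.12 ± 0.28 (SD, n = 4) for NeuNT/H1074R tumours. The difference of 0.23 was smaller than the spread between tumours of a genotype, and it was 0.11 without NeuNT/H1074R replicate 4, 0.15 without NeuNT replicate 1, 0.36 without NeuNT replicate 2 and 0.45 when both tumours rich in muscle genes were left out.

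**Figure D2:**
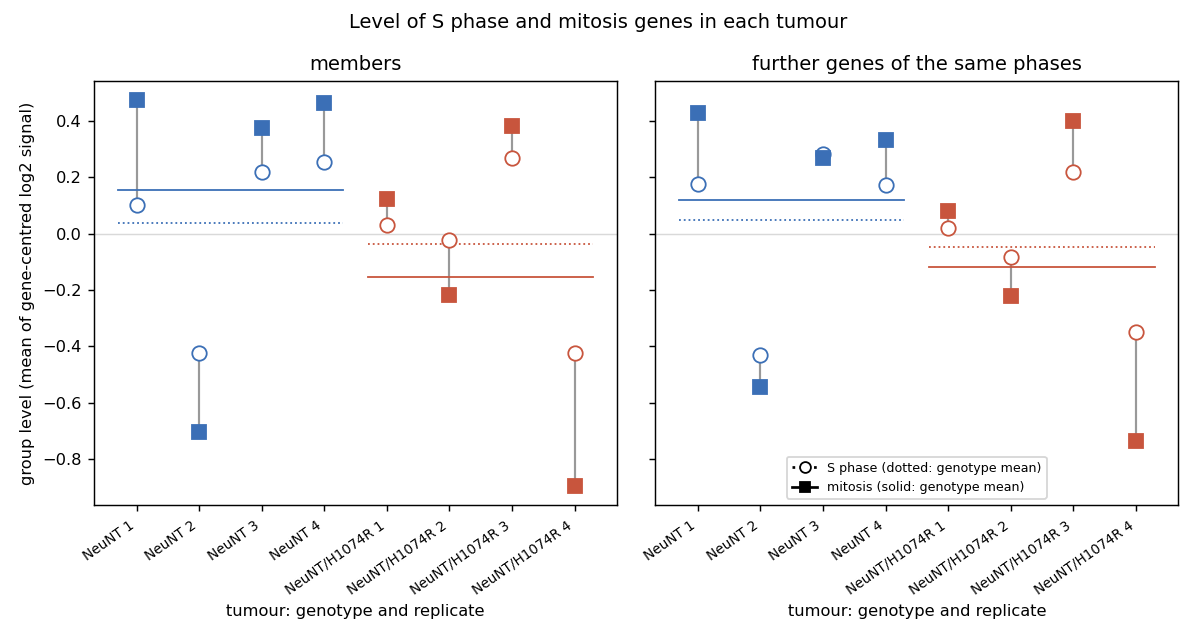
Level of S phase genes (open circles) and mitosis genes (filled squares) in each tumour, as the mean of gene-centred log2 signals, for the 38 genes (left) and for further genes of the same phases (right); blue is NeuNT, red NeuNT/H1074R, and horizontal lines are genotype means. In NeuNT replicate 2 and NeuNT/H1074R replicate 4 both levels are lowest and the mitosis level, at −0.70 and −0.90, lies below the S phase level, at −0.43 and −0.42.

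Further genes of the same phases, from lists that do not contain the 38 genes, gave a like picture. The level of 33 further S phase genes (36 in the list) was 0.18, −0.43, 0.28 and 0.17 in NeuNT replicates 1 to 4 and 0.019, −0.083, 0.22 and −0.35 in NeuNT/H1074R replicates 1 to 4, and that of 48 further mitosis genes (54 in the list) was 0.43, −0.55, 0.27 and 0.33 in NeuNT replicates 1 to 4 and 0.079, −0.22, 0.40 and −0.74 in NeuNT/H1074R replicates 1 to 4. Both NeuNT replicate 2 and NeuNT/H1074R replicate 4 lay below all of the other 6 tumours for 20 of 33 further S phase genes (60.6%) and for 39 of 47 tested further mitosis genes (83.0%). The S phase minus mitosis contrast of the further genes was −0.25, 0.11, 0.017 and −0.16 in NeuNT replicates 1 to 4 and −0.060, 0.14, −0.18 and 0.39 in NeuNT/H1074R replicates 1 to 4. It kept its sign from the 38 genes in every tumour but NeuNT replicate 3, where it was near 0. Here too the mitosis level was subtracted and ranged further, so the sign again depends largely on that level.

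The upstream factors of S phase were the least uniform group. E2f1, the founding activator E2F, stood at 6.20, 5.78, 6.63 and 6.15 in NeuNT replicates 1 to 4 and at 6.26, 6.11, 6.03 and 5.93 in NeuNT/H1074R replicates 1 to 4. It was highest in NeuNT replicate 3 and spread little among NeuNT/H1074R tumours, with a difference between genotypes of −0.11 ± 0.18 (SE) on the log2 scale, which did not pass (limma, adjusted p = 0.98). E2f2, a second activator E2F, stood at 5.55, 6.01, 5.42 and 6.15 in NeuNT replicates 1 to 4 and at 6.24, 5.67, 6.40 and 5.83 in NeuNT/H1074R replicates 1 to 4. E2f2 did not follow the other genes, since its lowest tumours were NeuNT replicates 3 and 1 and it was highest in NeuNT/H1074R replicates 3 and 1; its difference between genotypes was 0.25 ± 0.23 (SE) on the log2 scale and did not pass (limma, adjusted p = 0.978).

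Ccne1, the cyclin that partners CDK2 at the entry to S phase, stood at 5.72, 5.71, 6.25 and 6.27 in NeuNT replicates 1 to 4 and at 5.71, 5.60, 5.95 and 5.70 in NeuNT/H1074R replicates 1 to 4. NeuNT replicates 3 and 4 were high and the other 6 tumours lay between 5.60 and 5.95, for a difference between genotypes of −0.24 ± 0.17 (SE) on the log2 scale, which did not pass (limma, adjusted p = 0.978). Mybl2, the MYB factor that is itself an E2F target and helps switch on mitosis genes, stood at 7.51, 6.62, 7.55 and 7.94 in NeuNT replicates 1 to 4 and at 7.43, 6.92, 7.56 and 6.40 in NeuNT/H1074R replicates 1 to 4. Like the mitosis genes it was low in NeuNT replicate 2 and NeuNT/H1074R replicate 4, and its difference between genotypes was −0.32 ± 0.34 (SE) on the log2 scale and did not pass (limma, adjusted p = 0.978). A second, dimmer probe of Mybl2 (mean 4.54) gave a difference of the other sign, 0.12.

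Among the genes of origin licensing and of the helicase, NeuNT replicate 2 and NeuNT/H1074R replicate 4 lay below the other 6 tumours for Cdt1 and all 6 MCM genes, but not for Gins2. Mcm5 stood at 7.99, 7.13, 7.88 and 8.27 in NeuNT replicates 1 to 4 and at 7.67, 7.88, 8.11 and 6.92 in NeuNT/H1074R replicates 1 to 4, with NeuNT/H1074R replicate 4 lowest and NeuNT replicate 4 highest. Mcm6 stood at 8.11, 7.29, 8.37 and 8.12 in NeuNT replicates 1 to 4 and at 7.87, 8.10, 8.27 and 7.21 in NeuNT/H1074R replicates 1 to 4, where the 2 low tumours were again parted from the other 6. The highest over the lowest tumour was 2.54-fold for Mcm5, 2.27-fold for Mcm2, 2.23-fold for Mcm6, 1.98-fold for Mcm3, 1.82-fold for Mcm7 and 1.81-fold for Mcm4. All 6 MCM genes had a slightly lower mean in NeuNT/H1074R, from −0.18 for Mcm7 to −0.099 for Mcm4, and none passed (limma, adjusted p from 0.978 to 0.988). Without NeuNT/H1074R replicate 4 the differences of Mcm2, Mcm3, Mcm4, Mcm5 and Mcm6 were above 0.

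Cdt1, which loads the MCM helicase onto origins, stood at 7.20, 6.58, 7.04 and 7.37 in NeuNT replicates 1 to 4 and at 7.48, 7.01, 7.61 and 6.66 in NeuNT/H1074R replicates 1 to 4. NeuNT/H1074R replicates 3 and 1 were highest, and the difference between genotypes was 0.14 ± 0.25 (SE) on the log2 scale and did not pass (limma, adjusted p = 0.98). When these replicates, both rich in muscle genes, were left out, it was −0.22. Gins2, a subunit of the GINS complex that activates the helicase, stood at 7.09, 6.92, 7.16 and 7.16 in NeuNT replicates 1 to 4 and at 7.18, 7.24, 7.15 and 7.12 in NeuNT/H1074R replicates 1 to 4. Its values hardly differed between tumours, with 1.25-fold between highest and lowest and a within-genotype SD of 0.087, against a median of 0.25 over all genes tested; its difference between genotypes was 0.088 ± 0.11 (SE) on the log2 scale and did not pass (limma, adjusted p = 0.978).

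Of the genes for nucleotide supply and the replication clamp, Rrm2 varied most. Rrm2, the regulatory subunit of ribonucleotide reductase, stood at 6.45, 5.63, 7.15 and 6.79 in NeuNT replicates 1 to 4 and at 6.36, 6.34, 7.06 and 5.91 in NeuNT/H1074R replicates 1 to 4. It was highest in NeuNT replicate 3 and NeuNT/H1074R replicate 3 and lowest in NeuNT replicate 2, a 2.86-fold range, with a difference between genotypes of −0.088 ± 0.35 (SE) on the log2 scale, which did not pass (limma, adjusted p = 0.988). Its second probe, at a mean of 2.95 and thus below the level called dim, differed by −0.14.

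Rrm1, the catalytic subunit of the same enzyme, stood at 8.54, 7.73, 8.37 and 8.35 in NeuNT replicates 1 to 4 and at 8.44, 8.45, 8.68 and 8.14 in NeuNT/H1074R replicates 1 to 4. NeuNT replicate 2 was low by more than any other tumour, and the difference of 0.18 ± 0.20 (SE) was positive and did not pass (limma, adjusted p = 0.978). Pcna, the sliding clamp of DNA polymerase, stood at 9.45, 8.83, 9.56 and 9.49 in NeuNT replicates 1 to 4 and at 9.23, 9.17, 9.19 and 9.03 in NeuNT/H1074R replicates 1 to 4. Outside NeuNT replicate 2 its values stayed within 9.03 to 9.56, and its difference between genotypes was −0.18 ± 0.17 (SE) on the log2 scale and did not pass (limma, adjusted p = 0.978). Tyms, the thymidylate synthase, ranged from 6.53 to 7.30 with its highest value in NeuNT/H1074R replicate 2 and a log2 difference of −0.11.

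Of the regulators of mitotic entry, Cdk1 stood at 7.93, 6.76, 7.88 and 7.94 in NeuNT replicates 1 to 4 and at 7.43, 7.27, 7.87 and 6.48 in NeuNT/H1074R replicates 1 to 4, which placed NeuNT replicate 2 and NeuNT/H1074R replicate 4 below the other 6 tumours, all at 7.27 or more. Ccna2, the cyclin of S phase and G2, stood at 8.48, 7.45, 8.59 and 8.51 in NeuNT replicates 1 to 4 and at 8.14, 7.86, 8.44 and 6.94 in NeuNT/H1074R replicates 1 to 4. The groups overlapped for both genes, and their log2 differences of −0.37 ± 0.36 (SE) and −0.41 ± 0.37 (SE) did not pass (limma, adjusted p = 0.978 for both).

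Ccnb2, a B-type cyclin of mitosis, stood at 8.60, 6.72, 7.62 and 8.41 in NeuNT replicates 1 to 4 and at 7.87, 7.70, 8.05 and 6.77 in NeuNT/H1074R replicates 1 to 4. NeuNT replicate 1 was highest and NeuNT replicate 2 lowest, a 3.69-fold range within 1 genotype, and the difference between genotypes was −0.24 ± 0.44 (SE) on the log2 scale and did not pass (limma, adjusted p = 0.982). Foxm1, the forkhead factor that activates late cell cycle genes, stood at 7.55, 6.09, 6.58 and 7.35 in NeuNT replicates 1 to 4 and at 6.95, 6.81, 7.01 and 6.45 in NeuNT/H1074R replicates 1 to 4. NeuNT replicates 1 and 4 were highest for both genes, and NeuNT replicate 3 was lower than these for both although the mitosis level of that tumour was 0.38. Foxm1 had a difference between genotypes of −0.087 ± 0.32 (SE) on the log2 scale, which did not pass (limma, adjusted p = 0.988).

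The kinases and their partner survivin had some of the widest ranges. Birc5, or survivin, the chromosomal passenger subunit that guides Aurora B, stood at 5.70, 4.20, 5.81 and 6.23 in NeuNT replicates 1 to 4 and at 5.41, 5.01, 5.82 and 4.21 in NeuNT/H1074R replicates 1 to 4. It was the most variable of the 38 genes, with 4.08-fold between NeuNT replicate 4 and NeuNT replicate 2 and a within-genotype SD of 0.79; its difference between genotypes was −0.37 ± 0.48 (SE) on the log2 scale and did not pass (limma, adjusted p = 0.978). Its lowest values, 4.20 and 4.21, lay close to the level called dim.

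Plk1, the polo-like kinase of spindle assembly, stood at 8.23, 6.85, 8.26 and 8.19 in NeuNT replicates 1 to 4 and at 7.85, 7.52, 8.24 and 6.85 in NeuNT/H1074R replicates 1 to 4. NeuNT replicate 2 and NeuNT/H1074R replicate 4 had the same value to 2 decimals and were the lowest of the 8. Aurkb, the Aurora kinase of the passenger complex, stood at 7.53, 6.31, 7.18 and 7.37 in NeuNT replicates 1 to 4 and at 6.95, 6.40, 7.12 and 6.09 in NeuNT/H1074R replicates 1 to 4, and its difference between genotypes was −0.46 ± 0.32 (SE) on the log2 scale and did not pass (limma, adjusted p = 0.978). In Aurkb NeuNT/H1074R replicate 2 was nearly as low as the 2 lowest tumours. Aurka, the Aurora kinase of the centrosome, ranged from 5.91 to 7.60 and had a log2 difference of −0.38 ± 0.37 (SE) (limma, adjusted p = 0.978).

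Genes of the spindle checkpoint and of the anaphase-promoting complex gave the lowest group level of any role in NeuNT/H1074R replicate 4, at −0.998. Ube2c, the ubiquitin-conjugating enzyme of that complex, stood at 8.46, 7.08, 8.34 and 8.60 in NeuNT replicates 1 to 4 and at 8.15, 7.50, 8.23 and 6.68 in NeuNT/H1074R replicates 1 to 4. NeuNT/H1074R replicate 4 was lowest and NeuNT replicate 4 highest, a 3.78-fold range, with a difference between genotypes of −0.48 ± 0.43 (SE) on the log2 scale, which did not pass (limma, adjusted p = 0.978). Cdc20, whose promoter was shown above, stood at 7.61, 6.97, 7.80 and 8.37 in NeuNT replicates 1 to 4 and at 7.83, 6.97, 8.34 and 6.42 in NeuNT/H1074R replicates 1 to 4. Here NeuNT/H1074R replicate 2 was as low as NeuNT replicate 2, and NeuNT replicate 4 and NeuNT/H1074R replicate 3 were high; the difference between genotypes was −0.30 ± 0.45 (SE) on the log2 scale and did not pass (limma, adjusted p = 0.978).

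Bub1b, the checkpoint protein BubR1, stood at 6.65, 5.51, 6.62 and 6.59 in NeuNT replicates 1 to 4 and at 6.34, 5.67, 6.66 and 5.10 in NeuNT/H1074R replicates 1 to 4, with both low tumours and NeuNT/H1074R replicate 2 apart from the other 5. Its log2 difference was −0.40 ± 0.39 (SE) (limma, adjusted p = 0.978). The checkpoint kinases Bub1 and Ttk ranged from 5.28 to 6.60 and 5.29 to 6.66, with log2 differences of −0.26 and −0.25, neither of which passed.

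Cenpa, the histone variant that marks the centromere, had the largest difference of the 38 genes. Its signal was 7.47, 6.31, 7.55 and 7.33 in NeuNT replicates 1 to 4 and 6.71, 6.76, 7.01 and 6.06 in NeuNT/H1074R replicates 1 to 4. In NeuNT, replicates 1, 3 and 4 lay above all NeuNT/H1074R tumours, but NeuNT replicate 2 lay below 3 of these 4. The means were 7.16 ± 0.58 (SD, n = 4) for NeuNT and 6.64 ± 0.40 (SD, n = 4) for NeuNT/H1074R, with a difference between genotypes of −0.53 ± 0.31 (SE) on the log2 scale, which did not pass (limma, adjusted p = 0.978). Its 95% interval ran from −1.24 to 0.18. The kinetochore motor Cenpe and the kinetochore protein Cenpf had differences of −0.26 and −0.18, and ranged from 5.78 to 7.14 and 5.87 to 7.06.

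Of the spindle motors and microtubule proteins, Kif23, a motor of the central spindle needed for cytokinesis, stood at 6.91, 5.84, 6.63 and 7.04 in NeuNT replicates 1 to 4 and at 6.58, 6.14, 6.64 and 5.21 in NeuNT/H1074R replicates 1 to 4. It was lowest in NeuNT/H1074R replicate 4, with NeuNT replicate 2 next, and had a difference between genotypes of −0.46 ± 0.37 (SE) on the log2 scale, which did not pass (limma, adjusted p = 0.978). Kif11, the motor that drives spindle poles apart, ranged from 5.97 to 7.52 with a difference of −0.23, and Kif20a, a motor of cytokinesis, from 6.50 to 7.73 with a difference of −0.067. Tpx2, the activator of Aurora A on the spindle, ranged from 5.98 to 7.60 with a difference of −0.30. Nusap1, a microtubule-binding protein, ranged from 5.62 to 6.90 with a difference of −0.41, and in it NeuNT/H1074R replicate 2, at 5.92, was slightly lower than NeuNT replicate 2, at 5.95. None of these passed (limma, adjusted p from 0.978 to 0.990).

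Spread between tumours of 1 genotype is given by role as a description, without a test. The median within-genotype SD was 0.60 for the 22 mitosis genes, 0.34 for the 16 S phase genes and 0.25 for all genes tested. All 22 mitosis genes and 6 of the 16 S phase genes (Mybl2, Cdt1, Mcm2, Mcm5, Mcm6 and Rrm2) lay above 0.39, the 75th percentile of all genes tested. Above the 90th percentile, 0.62, lay 8 mitosis genes and 0 S phase genes.

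**Figure D3:**
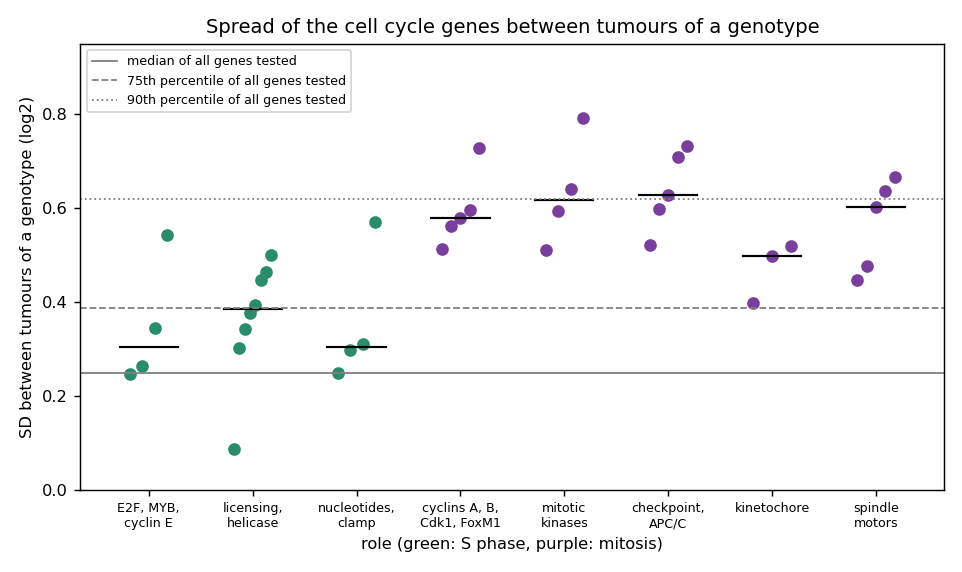
SD between tumours of a genotype on the log2 scale (vertical axis) for each of the 38 genes, by role, with S phase roles in green and mitosis roles in purple; short black bars are medians by role and horizontal lines mark the median, the 75th and the 90th percentile of all genes tested. Every purple point lies above the 75th percentile, 0.39, and Gins2 is the low green point at 0.087.

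Between genotypes no gene of the set stood out. Over the 22 mitosis genes the log2 differences ran from −0.53 (Cenpa) to −0.029 (Mki67), all below 0, with a median of −0.30. For the 16 S phase genes they ran from −0.32 (Mybl2) to 0.25 (E2f2), 12 below and 4 above 0 (E2f2, Rrm1, Cdt1 and Gins2), with a median of −0.11. Over all genes tested the median was −0.0027 and 50.5% were below 0. Because most of the 38 genes move together, their shared sign is not 38 separate observations.

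The adjusted p was 0.978 or more for each of the 38 genes, and the genotypes did not overlap in 0 of 38 against 2.69% of all genes. The ordinary two-sample test likewise passed 0 of the 38 and had 0 with an unadjusted p under 0.05. The 95% intervals do not exclude sizeable differences: that of Ube2c ran from −1.46 to 0.51 and that of Mki67 from −0.82 to 0.76, whereas that of Gins2 ran from −0.17 to 0.34.

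**Figure D4:**
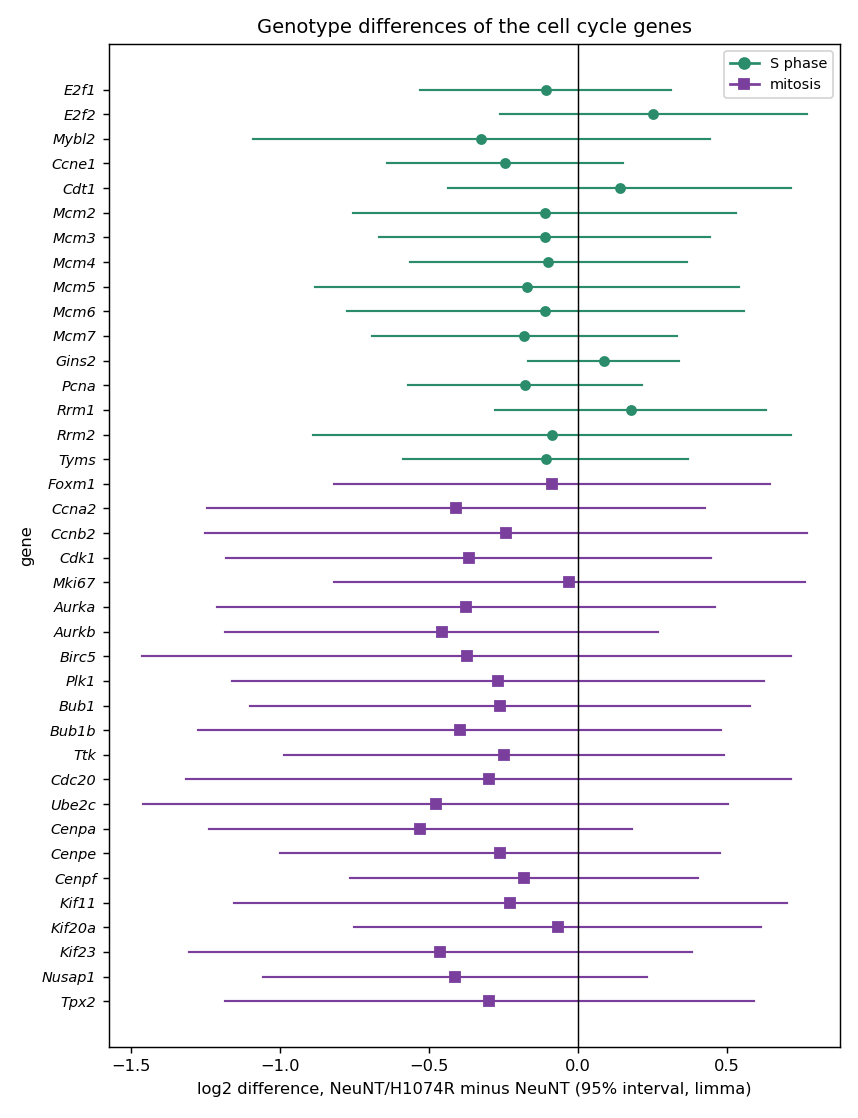
Log2 difference between genotype means, NeuNT/H1074R minus NeuNT (horizontal axis), with its 95% interval from limma, for each of the 38 genes (vertical axis), as green circles for S phase and purple squares for mitosis. All purple squares lie left of 0, and every interval includes 0.

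The size of these differences depended on single tumours. Without NeuNT/H1074R replicate 4 the median was −0.036 for mitosis and 0.062 for S phase genes, and 18 of the 38 genes had a higher mean in NeuNT/H1074R. Without NeuNT replicate 2 the medians were −0.61 and −0.29, and 4 of the 38 genes (10.5%) had an unadjusted p under 0.05, against 3.81% of all genes in that fit. The S phase median was 0.011 without NeuNT replicate 3. Leaving out NeuNT replicate 4 gave −0.063 for S phase and −0.20 for mitosis genes. When NeuNT/H1074R replicate 3 was left out the medians were −0.54 for mitosis and −0.23 for S phase genes. Without the lowest tumour of each genotype, a choice made after the values had been seen, the medians were −0.35 and −0.14, with 34 of 38 genes again lower. In each of these fits 0 of the 38 genes passed.

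Cdc6, which loads the helicase with Cdt1, and Top2a, the topoisomerase that untangles chromosomes, are the neighbours of Erbb2 that were set aside. Erbb2 lies on chromosome 11, with 18 protein-coding genes between it and Cdc6 and 22 between it and Top2a in the RefSeq order. Cdc6 stood at 5.94, 5.62, 6.15 and 6.36 in NeuNT replicates 1 to 4 and at 6.17, 5.87, 8.91 and 5.30 in NeuNT/H1074R replicates 1 to 4. Top2a stood at 7.80, 6.74, 7.67 and 7.80 in NeuNT replicates 1 to 4 and at 7.69, 7.31, 10.21 and 6.51 in NeuNT/H1074R replicates 1 to 4. In NeuNT/H1074R replicate 3 both were far above all other tumours, whereas in the other 7 tumours they followed the set, lowest in NeuNT/H1074R replicate 4 and next in NeuNT replicate 2. Their differences of 0.54 ± 0.69 (SE) and 0.43 ± 0.71 (SE) (limma, adjusted p = 0.978 and 0.980) turned to −0.24 and −0.33 without NeuNT/H1074R replicate 3. Aurkb and Birc5 are also on chromosome 11, with 541 and 400 protein-coding genes between them and Erbb2, and in NeuNT/H1074R replicate 3, at 7.12 and 5.82, they lay within the range of the other tumours.

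The other cell cycle lists showed as little difference between genotypes. Of the 33 further S phase genes tested, 21 had a lower and 12 a higher mean in NeuNT/H1074R, with a median of −0.088. Smallest in p were Slbp, which binds histone messenger RNA (−0.24), the polymerase alpha subunit Pola2 (−0.33), the helicase factor Cdc45 (−0.40) and the dUTPase Dut (−0.20). Of 47 further mitosis genes tested, 44 had a lower mean, with a median of −0.22, led by the kinetochore gene Spc25 (−0.46 ± 0.23 (SE)), the spindle pole gene Aspm (−0.50), the abscission gene Cep55 (−0.56) and the phosphatase Cdc25b (−0.35). None passed in either list (limma, adjusted p of 0.978 or more). On leaving out single tumours the smallest differences were −0.21 for Cdc45, −0.31 for Aspm and −0.30 for Cep55 without NeuNT/H1074R replicate 4, and −0.11 for Dut and −0.22 for Pola2 without NeuNT replicate 3. Without NeuNT replicate 2 the differences of Pola2 and Cdc25b were larger, at −0.54 and −0.57.

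RB, E2F and DREAM regulators, the switches above these genes, varied singly about as much as other genes, with a median range over the tumours of 0.78 against 0.74 log2 units for all genes tested. Their mean level, in which opposite movements cancel, stayed between −0.17 and 0.11, with NeuNT/H1074R replicate 4 and NeuNT replicate 2 again the lowest, and of 21 tested 14 had a lower and 7 a higher mean, with a median of −0.069 and 0 past the threshold. Lin9, a MuvB subunit shared by DREAM and the MYBL2 complex, stood at 8.23, 7.21, 8.04 and 7.22 in NeuNT replicates 1 to 4 and at 7.30, 7.05, 7.19 and 6.63 in NeuNT/H1074R replicates 1 to 4. Its difference between genotypes was −0.63 ± 0.27 (SE) on the log2 scale and did not pass (limma, adjusted p = 0.978). Its unadjusted limma p was 0.0479 and the genotypes overlapped. An unadjusted p under 0.05 was found for 1 of the 21 regulators tested and for 3.82% of all genes tested. E2f8, an E2F repressor, differed by −0.66 ± 0.44 (SE) and Rbl1, the pocket protein p107, by −0.28 ± 0.20 (SE). The difference of E2f8 was −0.32 without NeuNT replicate 4, and that of Rbl1 −0.16 without NeuNT replicate 3 and −0.43 without NeuNT replicate 2.

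Rb1, the retinoblastoma protein, stood at 8.64, 10.56, 9.17 and 9.13 in NeuNT replicates 1 to 4 and at 10.55, 9.89, 9.40 and 9.90 in NeuNT/H1074R replicates 1 to 4. It was highest in NeuNT replicate 2 and NeuNT/H1074R replicate 1, tumours that lay far apart in the level of mitosis genes, and its difference between genotypes was 0.56 ± 0.41 (SE) on the log2 scale and did not pass (limma, adjusted p = 0.978). The difference was 0.95 without NeuNT replicate 2 and 0.31 without NeuNT replicate 1.

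Markers of other cells were read beside the cell cycle genes. The tumours expressed epithelial genes throughout, with Krt8, Krt18 and Epcam between 9.78 and 11.4 in every tumour. The 10 epithelial markers did not move alike, with genotype differences from −1.22 to 1.35, 5 above and 5 below 0. NeuNT replicate 2 had the highest fibroblast level (0.77) and the highest endothelial level (0.55) of the 8 tumours and an adipocyte level of 0.99, next to 1.01 in NeuNT replicate 1. NeuNT/H1074R replicate 4, low in the same cell cycle genes, had the lowest fibroblast (−0.62), adipocyte (−0.77) and epithelial (−0.50) levels. In that tumour Krt18 (11.2) and Epcam (10.8) were above both genotype means, and Krt8 (10.2) was below them. Of the 10 epithelial markers only these were named, as a check of the tissue. They do not stand for the list, whose level was the lowest of the 8 tumours there. Fibroblast and adipocyte markers were thus high in NeuNT replicate 2 and low in NeuNT/H1074R replicate 4. Whether they bear on the cell cycle levels of either tumour was not tested.

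Each list was measured by 10 of its 10 markers, or 9 of 10 for adipocytes and for T and NK cells and 5 of 6 for B cells. Fibroblast levels ran from −0.60 to 0.77 in NeuNT and from −0.62 to 0.22 in NeuNT/H1074R tumours, endothelial levels from −0.38 to 0.55 and from −0.18 to 0.061, and macrophage levels from −0.22 to 0.43 and from −0.82 to 0.25. Adipocyte levels ran from −0.42 to 1.01 and from −0.77 to 0.15. Epithelial levels ran from −0.073 to 0.058 in NeuNT and from −0.50 to 0.39 in NeuNT/H1074R tumours. T and NK cell levels ran from −0.51 to 0.71 and from −0.63 to 0.19, with 2 of the 9 markers below the level called dim on average, and B cell levels from −0.068 to 0.36 and from −0.18 to 0.019, with 1 of 5. Every epithelial, fibroblast, endothelial and macrophage marker was above that level in all tumours. Skeletal muscle genes were high in NeuNT/H1074R replicates 1 and 3 (1.61 and 1.24, against −0.74 to −0.13 elsewhere), both of which had mitosis levels above 0, and 3 of the 10 muscle markers were below the dim level in every NeuNT tumour and in NeuNT/H1074R replicate 4. Without these tumours the median difference was −0.75 for mitosis and −0.30 for S phase genes, and again 0 of 38 genes passed, with 3 (7.89%) at an unadjusted p under 0.05 against 6.65% of all genes in that fit. The part of other cell types in the cell cycle levels was not tested.

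**Figure D5:**
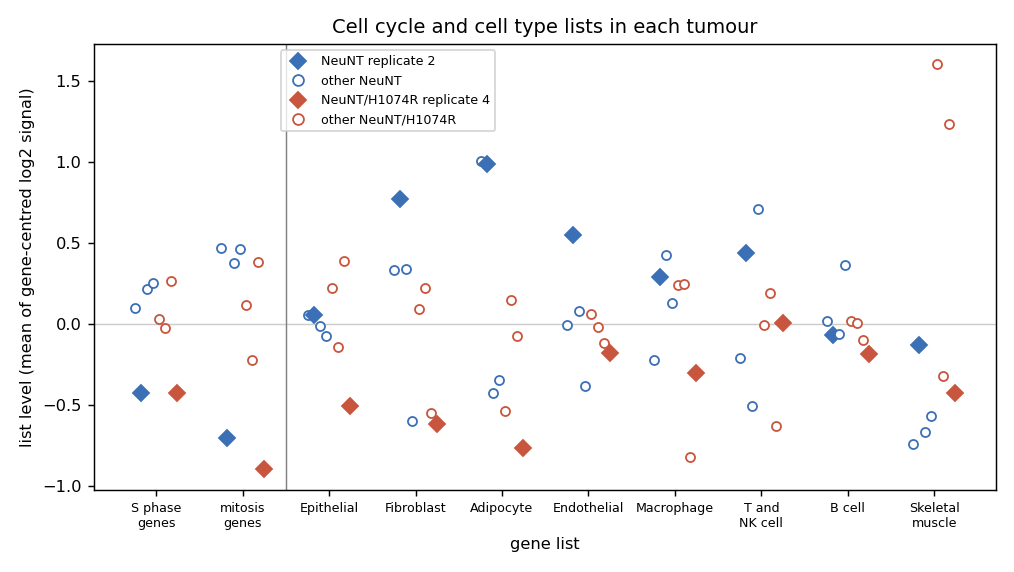
Level (mean of gene-centred log2 signals, vertical axis) of S phase and mitosis genes and of markers of 8 cell types (horizontal axis) in each tumour, blue for NeuNT and red for NeuNT/H1074R; filled diamonds are NeuNT replicate 2 and NeuNT/H1074R replicate 4 and open circles the other tumours. The diamonds lie together at the bottom for mitosis genes, at −0.70 and −0.90, and apart for fibroblast and adipocyte markers.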

How the data were processed

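Gene expression was measured in 8 tumours, 4 NeuNT and 4 NeuNT/H1074R, on Affymetrix whole-transcript arrays. The authors deposited 1 table of log2 values for 41345 probes; the submitters' processing notes name 2 programs, Transcriptome Analysis Console and Affymetrix Expression Console. Their versions, the background correction and the normalization were not given in the sources used here. Array medians lay between 4.81 and 4.87, so values were used as deposited. The log2 scale was read from the values (0.887 to 13.6). Arrays carry no read depth, and their number limits the precision.

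Probes were named from the platform annotation (23521 with 1 symbol, 1814 with several, 16010 not listed). Of several probes of a gene the one of highest mean was taken, and 5545 genes with a mean in the lowest 25% were left out, which left 16635. Genotypes were compared with limma 3.58.1 in R 4.3.3 (lmFit, eBayes with an intensity trend, two-sided, Benjamini-Hochberg over all tested genes, threshold 0.05), with no covariate. The fit was tested on simulated data.

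The genes, lists and groupings were chosen with earlier results of these data known, so gene groups are described by counts and medians without a test. Named genes are the 38 members, Cdc6 and Top2a, and up to 4 genes of smallest unadjusted p per further list; Krt8, Krt18 and Epcam were named as a check of the tissue. Promoters and gene order are from RefSeq, assembly GRCm38.p6; the build behind the array's design was not stated in them. Alternatives are given in the closing section.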

Additional observations from a re-analysis of the deposited data

Results flagged for a closer look

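In groups of 4 tumours, a value was singled out when its gap to the nearest other tumour exceeded Dixon's 95% critical share of the group's range, which chance alone gives for about 1 in 20 groups. Of 110 groups checked, 15 were singled out, many of them the same tumour in genes that move together, so they are not separate events. The level of mitosis genes in NeuNT replicate 2 was −0.70, against 0.38 to 0.47 in the other NeuNT tumours. NeuNT replicate 2 was also singled out for Mki67 (7.49), Cdk1 (6.76), Ccna2 (7.45), Plk1 (6.85), Bub1 (5.32), Bub1b (5.51), Kif20a (6.66) and Tpx2 (6.29), for the S phase genes Mcm7 (7.19) and Pcna (8.83), for Top2a (6.74), and for Cdc25b (5.51) and Cep55 (5.46). NeuNT/H1074R replicate 4 was singled out for Mki67, at 7.60 against 8.55 to 8.68 in the other tumours of its genotype. The level of S phase genes was singled out in neither genotype, and nor was the level of mitosis genes in NeuNT/H1074R, where replicate 2 lay between replicate 4 and the other tumours. Other features of these tumours that vary with them are given in the report, and their part was not tested.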

How the results depend on the processing

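With 0 genes past the threshold in the whole table and 0 among the 38 genes, nothing was gained or lost under any alternative run: quantile normalization, arrays centred on their medians, no filter on dim genes, the lowest 50% of genes left out (37 of the 38 genes tested), the mean of all probes of a gene, no intensity trend, array weights, the ordinary two-sample test, each tumour left out, both tumours with high muscle genes left out, and, added after the data had been seen, the lowest tumour of each genotype left out. The median differences, and the S phase minus mitosis contrast, moved by less than 1 within-genotype SD of their level. For S phase genes, mitosis genes and the contrast these SDs were 0.30, 0.56 and 0.28. They were larger in size than the main results of −0.11, −0.30 and 0.23. A change of sign could thus stay within them, and the limit does not show that the results are stable. That contrast is a difference of group means, not of medians. The median differences and the contrast are given here in that order. On leaving out single tumours they ran from −0.29 to 0.062 for S phase genes, from −0.61 to −0.036 for mitosis genes and from 0.11 to 0.36 for the contrast of both; with quantile normalization they were −0.048, −0.24 and 0.24, and with array weights −0.16, −0.47 and 0.31. The sign was kept under every alternative by 20 of the 38 genes (6 S phase, 14 mitosis). On leaving out single tumours it turned for E2f1 (−0.24 to 0.038), Cdt1 (−0.015 to 0.32), Mcm2 (−0.27 to 0.11), Mcm3 (−0.31 to 0.021), Mcm4 (−0.22 to 0.054), Mcm5 (−0.40 to 0.071), Mcm6 (−0.33 to 0.11), Rrm2 (−0.38 to 0.13), Tyms (−0.25 to 0.0043), Foxm1 (−0.36 to 0.13), Ccnb2 (−0.61 to 0.036), Mki67 (−0.33 to 0.23), Cdc20 (−0.62 to 0.023), Cenpf (−0.39 to 0.0075), Kif11 (−0.55 to 0.054), Kif20a (−0.28 to 0.17), Tpx2 (−0.59 to 0.0012), Cdc6 (−0.24 to 0.96) and Top2a (−0.33 to 0.90). Without both tumours with high muscle genes it turned for E2f2 (−0.029), Cdt1 (−0.22), Cdc6 (−0.44) and Top2a (−0.59), and with quantile normalization for Mki67 (0.035). The cause was not tested. No paired analysis was possible because the labels give the tumours no numbers shared between genotypes. Values near the level called dim, such as the lowest of Birc5 (4.20 and 4.21), may limit the size of measured differences, which was not tested.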
